A study of Homo sapiens with 10 samples.

Results

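The genes described here make, regulate and move cholesterol and fatty acids, and their RNA was read in 10 culture conditions, each on a single one-colour Affymetrix array. A list of 35 genes was drawn up, and a gene was represented by the brightest of the probe sets that the array annotation maps to its symbol only. This left 32 of the 19775 genes on the array. FDFT1, CYP51A1 and FADS1 had no such probe set and have no values here. HCT116 is a colorectal carcinoma line, and Hke3 is its derivative, with a genotype that the labels do not state. Both gave 4 arrays: untreated, vitamin D3 added, THP1 macrophages added, or both added. The remaining 2 arrays hold THP1, derived from a monocytic leukaemia, untreated and with vitamin D3. In coculture soluble factors could pass but the cells could not touch, and vitamin D3 was given for 24 hours. The cancer lines were kept in MEM and THP1 in RPMI, both with serum. No condition has a replicate.

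Cells build cholesterol from acetyl-CoA through mevalonate, squalene and lanosterol, and the same acetyl-CoA feeds fatty acid synthesis. The SREBP transcription factors switch on both sets of genes when membrane sterols are low: SCAP escorts SREBP to the Golgi for cleavage, and the INSIG proteins hold it back when sterols are plentiful. The liver X receptors, LXR, respond to the oxysterols that build up with cholesterol and induce the cholesterol exporters ABCA1 and ABCG1 and the ubiquitin ligase MYLIP, which removes lipoprotein receptors.

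Levels are the deposited log2 intensities, so a difference of 1 is a doubling, and they compare arrays for a gene but not genes with each other. Testing was limited to genes brighter than 6.18 log2 (the median over all values) on at least 1 of the 8 colon cancer arrays. That held for 13243 genes and for 31 of the 32 members. All but ABCA1 and ABCG1 lay above this value on all 8 arrays. ABCA1 was not tested, and ABCG1 passed through 1 array, Hke3 in coculture (6.30). Errors after ± are standard errors of the limma fit over the 8 arrays, in which the arrays with and without vitamin D3 take the place of replicates, and adjusted p-values are its two-sided tests after Benjamini-Hochberg adjustment over all genes tested. These p-values measure only the spread between these arrays. In such bulk samples, fewer cells of a kind and less RNA per cell cannot be told apart.

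The labelled cell types carried their markers: all 8 epithelial markers exceeded 6.18 log2 on every colon cancer array, and 13 of 14 macrophage markers did so in THP1 against 3 or 4 on the colon cancer arrays. The summed level of the 14 macrophage markers ran from 74.3 to 76.2 log2 on the colon cancer arrays, against 143 and 152 log2 in THP1. The highest sum was that of Hke3 cells given THP1 plus vitamin D3, where the granule proteoglycan SRGN read 6.28 log2 against 3.93 to 4.90 on the other 7 and 13.9 in THP1 alone. The 3' minus 5' difference of the ACTB control probe sets, which grows as RNA degrades, averaged 0.83 log2 in Hke3 without coculture and 0.59 with it, and 0.27 and 0.20 in HCT116. Its part in the differences below was not tested. The vitamin D hydroxylase CYP24A1, the classic vitamin D target, was higher on the arrays labelled with vitamin D3 without coculture (by 1.44 log2 in HCT116 and 1.45 in Hke3) and lower on those so labelled in coculture (differences of -0.98 and -1.36). The vitamin D3 labels of the 4 coculture arrays thus went against this gene. The means over both arrays of a line and culture, on which the coculture differences rest, do not depend on these labels. The standard errors and p-values do, because the fit holds a vitamin D3 term.

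With THP1 in coculture, the sterol and fatty acid genes that passed the test all rose in Hke3 and mostly fell in HCT116. In Hke3, 9 of 31 members rose and none fell, and in HCT116 7 fell and 3 rose. For 12 of 31 members the coculture difference was larger in Hke3 than in HCT116 by the test of the difference itself, and no member was called the other way. In this direction 1.87% of all genes tested were called. The members were chosen with earlier results of these data known, so this share describes the list and does not test it. The 12 are ACAT2, IDI1, SQLE, LSS, NSDHL, EBP, DHCR7, INSIG1, INSIG2, STARD4, SCD and LPIN1, and they span the mevalonate, squalene and late sterol steps, the SREBP inhibitors and fatty acid desaturation. In 10 of the 12 the mean difference was above 0 in Hke3 and below 0 in HCT116. The median difference between the lines was 0.35 log2 over the 31 members and 0.02 over all genes tested. Of all genes tested, 4.21% were called for the line difference in either direction and 2.34% with the larger value in HCT116. For coculture within a line, 7.14% of all genes were called in Hke3 (4.09% higher, 3.06% lower) and 16% in HCT116 (7.66% higher, 8.31% lower).

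**Figure D1:**
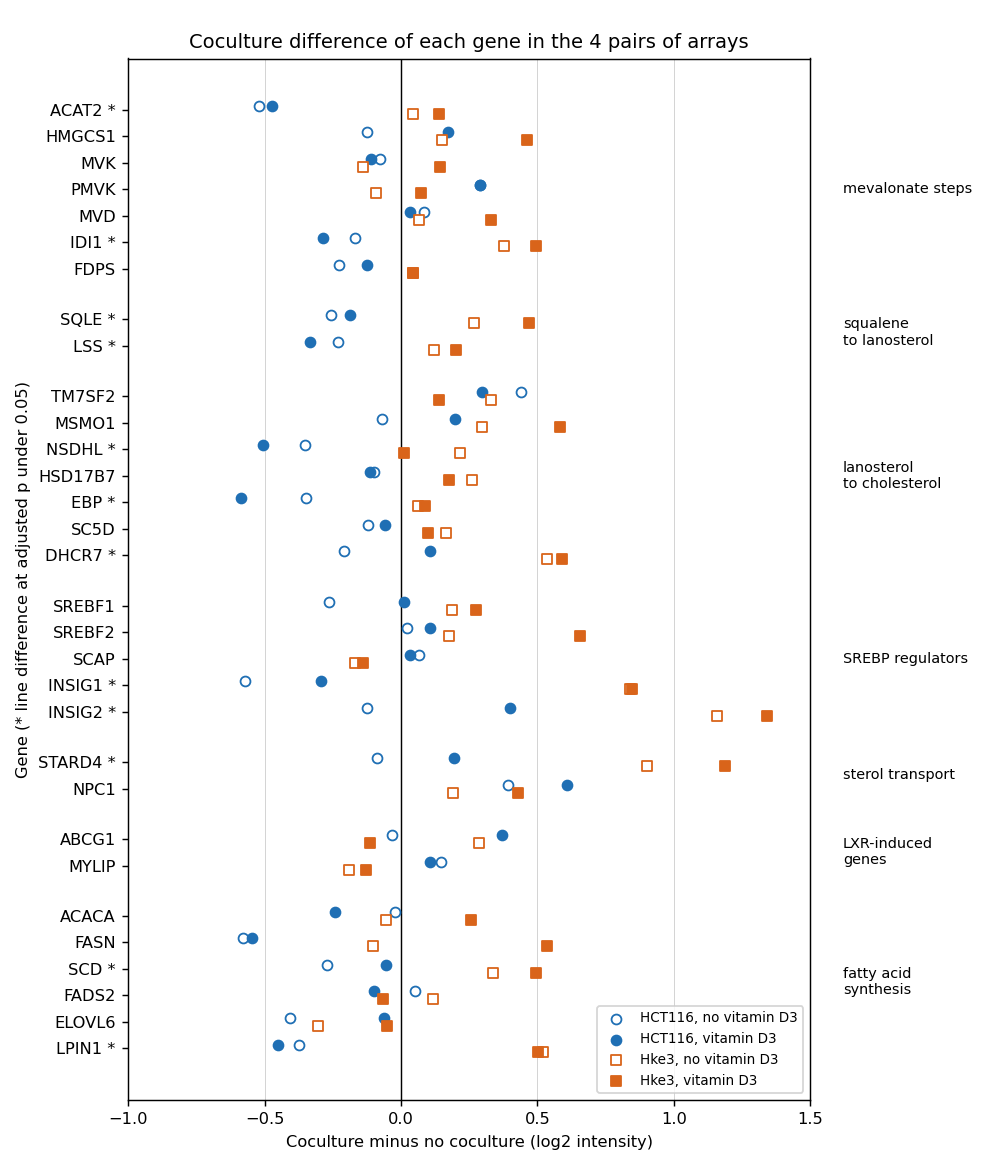
Coculture minus no coculture on the log2 scale (horizontal axis) for the 31 tested genes (vertical axis, by role), 1 symbol for each pair of arrays; circles are HCT116, squares Hke3, filled symbols the pairs labelled with vitamin D3, and an asterisk marks an adjusted p under 0.05 for the difference between the lines. For all 12 marked genes both Hke3 pairs lie to the right of both HCT116 pairs, and INSIG2, STARD4 and INSIG1 lie farthest right in Hke3.

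The pairs of arrays are matched by the vitamin D3 labels, which CYP24A1 goes against in coculture. The 12 members called for the line difference were called on these same arrays, so how their pairs separate is no further support. With the labels as deposited, for 19 of 31 members both Hke3 pairs exceeded both HCT116 pairs, all 12 called members among them, where 28.0% of all genes tested did so. The reverse held for 3 members and for 22.9% of all genes. With the vitamin D3 labels of the coculture arrays exchanged, both Hke3 pairs were above for 23 members, the 12 among them, and for 29.1% of all genes, and both HCT116 pairs for 5 members and 24.5%. With the labels as deposited, over the 31 members the HCT116 pairs had medians of -0.12 (no vitamin D3) and -0.06 log2 (vitamin D3), and the Hke3 pairs 0.17 and 0.26. The corresponding medians over all genes tested lay between -0.04 and 0.003.

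INSIG1, which anchors the SREBP-SCAP complex in the endoplasmic reticulum and is itself an SREBP target, had the smallest p of the members. Its levels in HCT116 were 10.60 alone, 10.61 after vitamin D3, 10.03 with THP1 and 10.32 with THP1 plus vitamin D3. In Hke3 they were 9.72 alone, 9.88 after vitamin D3, 10.56 with THP1 and 10.73 with THP1 plus vitamin D3. Both HCT116 coculture arrays lay below both arrays without coculture, and in Hke3 both lay above. The gene fell by 0.43 log2 in HCT116 (adjusted p = 0.0148) and rose 1.79-fold in Hke3 (log2 0.84 ± 0.08, adjusted p = 0.00222). The difference between the lines was 1.28 ± 0.11 log2 (adjusted p = 0.00361), rank 16 of 13243 genes by signed value.

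INSIG2, the second INSIG protein, whose gene is not known as an SREBP target, rose the most of the members in Hke3. It read 9.27 alone, 9.20 after vitamin D3, 9.15 with THP1 and 9.60 with THP1 plus vitamin D3 in HCT116. The Hke3 values were 9.42 alone, 9.48 after vitamin D3, 10.58 with THP1 and 10.82 with THP1 plus vitamin D3. Every Hke3 coculture value exceeded all 6 other colon cancer values, a rise of 2.38-fold (log2 1.25 ± 0.12, adjusted p = 0.00222). HCT116 differed by 0.14 ± 0.12 (adjusted p = 0.48), with its pairs at -0.12 and 0.40, and the difference between the lines was 1.11 ± 0.17 (adjusted p = 0.0165). The other SREBP regulators did not pass for this difference. SREBF2, the SREBP mainly tied to sterol genes, differed by 0.42 ± 0.11 in Hke3 (adjusted p = 0.063) and 0.06 ± 0.11 in HCT116. SREBF1, the SREBP mainly tied to fatty acid genes, differed by 0.23 ± 0.10 and -0.13 ± 0.10. SCAP, the escort, differed by -0.15 ± 0.06 and 0.05 ± 0.06, the opposite signs.

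STARD4, a soluble carrier of cholesterol between membranes, rose with coculture in Hke3 2.06-fold (log2 1.04 ± 0.10, adjusted p = 0.00258). HCT116 gave 9.45 alone, 9.53 after vitamin D3, 9.36 with THP1 and 9.72 with THP1 plus vitamin D3, values that overlap between cultures. Hke3 gave 9.11 alone, 9.02 after vitamin D3, 10.01 with THP1 and 10.21 with THP1 plus vitamin D3, and both coculture values lay above every other colon cancer value. The lines differed by 0.99 ± 0.15 log2 (adjusted p = 0.0158). NPC1, which lets cholesterol out of lysosomes, was the other transport gene. It read 9.12 alone, 9.09 after vitamin D3, 9.51 with THP1 and 9.70 with THP1 plus vitamin D3 in HCT116 and rose there by 0.50 ± 0.09 (adjusted p = 0.0121). In Hke3 it read 9.41 alone, 9.32 after vitamin D3, 9.60 with THP1 and 9.74 with THP1 plus vitamin D3, a difference of 0.31 ± 0.09 that missed the threshold (adjusted p = 0.0737). With both lines averaged, NPC1 rose by 0.40 ± 0.07 (adjusted p = 0.0207) and was 1 of 2 members called across lines, with TM7SF2. On the other NPC1 probe set above 6.18 log2, HCT116 differed by 0.006 (adjusted p = 0.972) and Hke3 by 0.12. With the mean of its probe sets NPC1 differed by 0.12 in HCT116 and 0.15 across lines, and the call across lines was lost. Of all genes tested, 7.82% were called across lines, 3.76% higher and 4.05% lower.

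**Figure D2:**
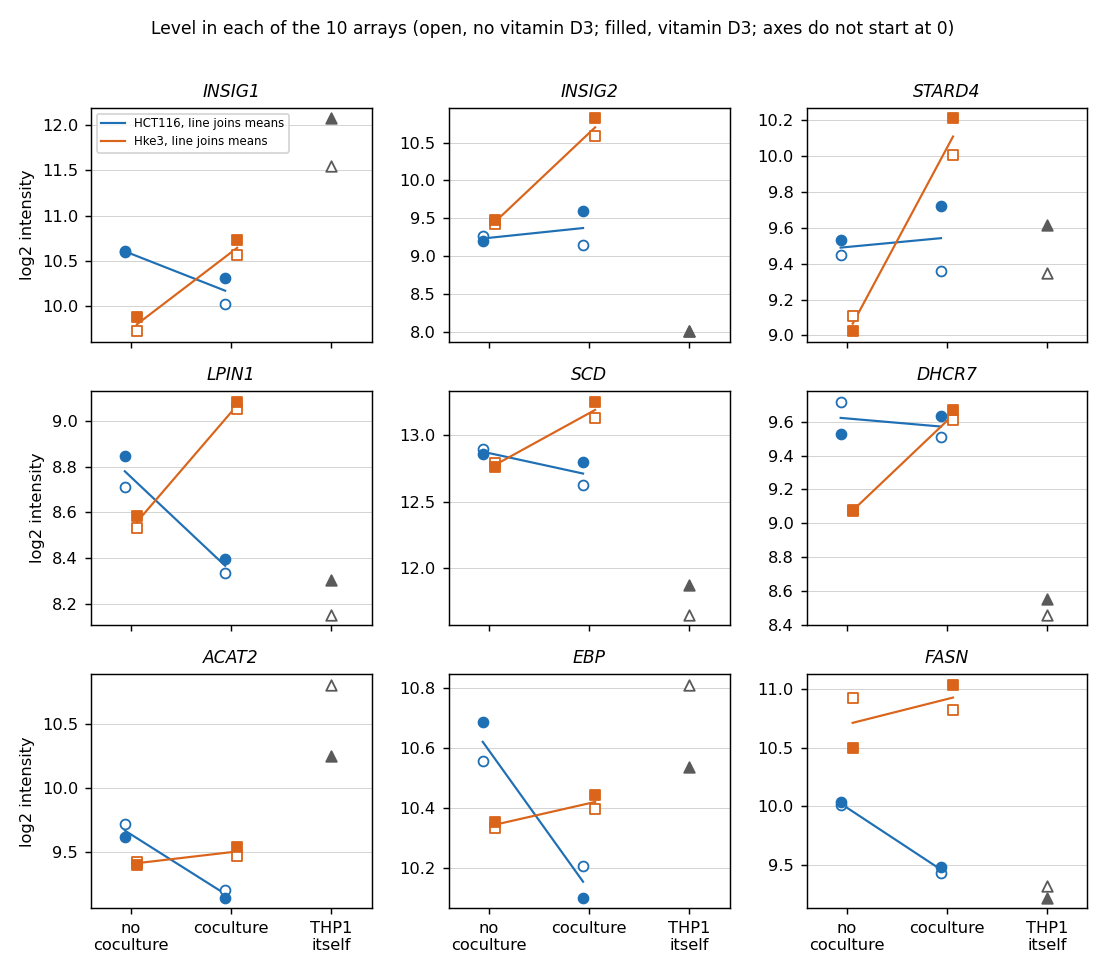
Deposited log2 intensity (vertical axis, a scale of its own in each panel) of 9 genes on every array, for colon cancer cells without and with coculture and for THP1 itself (horizontal axis); open symbols are arrays without and filled symbols arrays with vitamin D3, circles HCT116, squares Hke3 and triangles THP1, and coloured lines join the means of 2 arrays. The means of INSIG1, STARD4, LPIN1, SCD, DHCR7, ACAT2 and EBP cross over between the lines, while those of INSIG2 and FASN do not. INSIG2 and STARD4 move mainly in Hke3, and ACAT2, EBP and FASN fall in HCT116.

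The early part of the pathway differed between the lines at ACAT2 and IDI1. ACAT2, the cytosolic thiolase that joins acetyl-CoA units, gave 9.72 alone, 9.61 after vitamin D3, 9.20 with THP1 and 9.14 with THP1 plus vitamin D3 in HCT116, a fall of 1.41-fold (log2 -0.50 ± 0.07, adjusted p = 0.00732). Hke3 gave 9.42 alone, 9.40 after vitamin D3, 9.47 with THP1 and 9.54 with THP1 plus vitamin D3, a difference of 0.09 ± 0.07 (adjusted p = 0.465). Both HCT116 coculture values lay below every other colon cancer value, and the lines differed by 0.59 ± 0.10 log2 (adjusted p = 0.0234). IDI1, the isopentenyl diphosphate isomerase, gave 11.12 alone, 11.20 after vitamin D3, 10.94 with THP1 and 10.92 with THP1 plus vitamin D3 in HCT116. Its Hke3 values were 10.70 alone, 10.59 after vitamin D3, 11.08 with THP1 and 11.09 with THP1 plus vitamin D3, and it rose there by 0.44 ± 0.07 (adjusted p = 0.0169). The Hke3 values reached the HCT116 range only in coculture, and the lines differed by 0.66 ± 0.10 (adjusted p = 0.0166). This probe set is of the kind marked as open to other transcripts, so the level is uncertain. With the mean of the 4 IDI1 probe sets neither call held: the Hke3 difference was 0.08 (adjusted p = 0.493) and the line difference 0.25 (adjusted p = 0.157).

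The other 5 mevalonate genes did not pass for the line difference. HMGCS1, which makes HMG-CoA, differed by 0.31 ± 0.10 in Hke3 and 0.02 ± 0.10 in HCT116. The farnesyl diphosphate synthase FDPS differed by 0.04 ± 0.06 and -0.18 ± 0.06, the decarboxylase MVD by 0.20 ± 0.08 and 0.06 ± 0.08, and mevalonate kinase MVK by 0.001 and -0.09. PMVK, phosphomevalonate kinase, read 8.89 alone, 8.85 after vitamin D3, 9.18 with THP1 and 9.14 with THP1 plus vitamin D3 in HCT116 and rose by 0.29 ± 0.07 (adjusted p = 0.03). In Hke3 PMVK read 9.05 alone, 8.92 after vitamin D3, 8.96 with THP1 and 8.99 with THP1 plus vitamin D3, with overlapping values and a difference of -0.01 ± 0.07.

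SQLE, the squalene epoxidase and a slow step of the pathway, read 10.34 alone, 10.28 after vitamin D3, 10.08 with THP1 and 10.09 with THP1 plus vitamin D3 in HCT116. In Hke3 it read 10.24 alone, 10.07 after vitamin D3, 10.51 with THP1 and 10.54 with THP1 plus vitamin D3 and rose by 0.37 ± 0.07 (adjusted p = 0.0302). LSS, which closes the rings to lanosterol, read 9.40 alone, 9.49 after vitamin D3, 9.17 with THP1 and 9.16 with THP1 plus vitamin D3 in HCT116 and fell by 1.22-fold (log2 -0.28 ± 0.07, adjusted p = 0.0289). In Hke3 LSS read 9.47 alone, 9.46 after vitamin D3, 9.59 with THP1 and 9.67 with THP1 plus vitamin D3, a difference of 0.16 ± 0.07 (adjusted p = 0.185). Both genes were lower on each HCT116 coculture array than on either array without coculture, and higher on each Hke3 coculture array. The line differences were 0.59 ± 0.10 for SQLE (adjusted p = 0.0266) and 0.44 ± 0.09 for LSS (adjusted p = 0.0447).

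Of 7 tested genes between lanosterol and cholesterol, 3 differed between the lines. EBP, the sterol isomerase, fell in HCT116, from 10.56 alone and 10.69 with vitamin D3 to 10.21 in coculture and 10.10 with both (log2 -0.47 ± 0.08, adjusted p = 0.0103). The 4 Hke3 values of EBP lay between 10.33 and 10.44, a difference of 0.08 ± 0.08. NSDHL, which removes carbon during demethylation, read 8.60 alone, 8.61 after vitamin D3, 8.25 with THP1 and 8.11 with THP1 plus vitamin D3 in HCT116 and fell there (log2 -0.43 ± 0.08, adjusted p = 0.0157). Its Hke3 values were 8.06 alone, 8.19 after vitamin D3, 8.28 with THP1 and 8.20 with THP1 plus vitamin D3. DHCR7, the enzyme of the last reduction to cholesterol, read 9.07 alone, 9.08 after vitamin D3, 9.61 with THP1 and 9.67 with THP1 plus vitamin D3 in Hke3, a rise of 1.48-fold (log2 0.56 ± 0.09, adjusted p = 0.0139). In HCT116 DHCR7 read 9.72 alone, 9.53 after vitamin D3, 9.51 with THP1 and 9.63 with THP1 plus vitamin D3, with overlapping values. So EBP and NSDHL fell in HCT116, while DHCR7 rose in Hke3 to the level that HCT116 held in both cultures. The line differences were 0.54 ± 0.11 for EBP, 0.54 ± 0.11 for NSDHL and 0.61 ± 0.12 for DHCR7 (adjusted p = 0.0375, 0.0443 and 0.0398).

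MSMO1, the methylsterol oxidase, rose in Hke3 (10.74 alone, 10.70 after vitamin D3, 11.03 with THP1 and 11.28 with THP1 plus vitamin D3; log2 0.44 ± 0.09, adjusted p = 0.0365). In HCT116 it read 11.26 alone, 11.20 after vitamin D3, 11.19 with THP1 and 11.40 with THP1 plus vitamin D3, and the line difference missed the threshold (0.37 ± 0.13, adjusted p = 0.158). TM7SF2, a sterol reductase, rose in HCT116, where it read 8.24 alone, 8.23 after vitamin D3, 8.68 with THP1 and 8.52 with THP1 plus vitamin D3 (log2 0.37 ± 0.08, adjusted p = 0.0249). In Hke3 TM7SF2 read 8.36 alone, 8.49 after vitamin D3, 8.69 with THP1 and 8.62 with THP1 plus vitamin D3, also higher in each coculture array, and across both lines it rose by 0.30 ± 0.06 (adjusted p = 0.0322). HSD17B7, the ketosteroid reductase, read 9.62 alone, 9.62 after vitamin D3, 9.52 with THP1 and 9.51 with THP1 plus vitamin D3 in HCT116. Its Hke3 values were 9.68 alone, 9.75 after vitamin D3, 9.94 with THP1 and 9.93 with THP1 plus vitamin D3, and the line difference of 0.33 ± 0.09 missed the threshold (adjusted p = 0.091). The annotation gives HSD17B7 1 probe set, of the same kind as that of IDI1, so its level is uncertain too. SC5D, a desaturase, differed by 0.13 ± 0.07 in Hke3 and -0.09 ± 0.07 in HCT116.

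Among fatty acid genes, SCD and LPIN1 differed between the lines. LPIN1, a phosphatidate phosphatase and an SREBP target, read 8.71 alone, 8.85 after vitamin D3, 8.34 with THP1 and 8.40 with THP1 plus vitamin D3 in HCT116. It read 8.53 alone, 8.58 after vitamin D3, 9.05 with THP1 and 9.08 with THP1 plus vitamin D3 in Hke3. The gene fell 1.33-fold in HCT116 (log2 -0.41 ± 0.06, adjusted p = 0.00995) and rose 1.42-fold in Hke3 (log2 0.51 ± 0.06, adjusted p = 0.00645). With INSIG1 it was 1 of 2 members called in both lines, and the lines differed by 0.92 ± 0.09 (adjusted p = 0.00476). SCD, the desaturase that makes oleate, read 12.90 alone, 12.86 after vitamin D3, 12.62 with THP1 and 12.80 with THP1 plus vitamin D3 in HCT116. In Hke3 SCD read 12.79 alone, 12.76 after vitamin D3, 13.13 with THP1 and 13.25 with THP1 plus vitamin D3 and rose by 0.42 ± 0.08 (adjusted p = 0.026), with a line difference of 0.58 ± 0.11 (adjusted p = 0.035).

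FASN, the fatty acid synthase, fell in HCT116, where it read 10.01 alone, 10.03 after vitamin D3, 9.43 with THP1 and 9.49 with THP1 plus vitamin D3 (1.48-fold lower, log2 -0.56 ± 0.14, adjusted p = 0.0316). In Hke3 it read 10.92 alone, 10.50 after vitamin D3, 10.82 with THP1 and 11.04 with THP1 plus vitamin D3, with overlapping values, and the line difference of 0.78 ± 0.19 missed the threshold (adjusted p = 0.0681). On the other, dim FASN probe set HCT116 differed by 0.19 (adjusted p = 0.186), and with the mean of both probe sets by -0.19. ACACA, the acetyl-CoA carboxylase that supplies FASN, differed by 0.10 ± 0.10 in Hke3 and -0.13 ± 0.10 in HCT116. The elongase ELOVL6 differed by -0.18 ± 0.10 and -0.24 ± 0.10, and the desaturase FADS2 by 0.03 ± 0.09 and -0.02 ± 0.09. On their brightest probe sets all 6 fatty acid genes tested lay below 0 in HCT116, and 2 of them, FASN and LPIN1, were called there.

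Neither LXR-induced gene tested passed for the line difference. MYLIP differed by -0.16 ± 0.07 in Hke3 and 0.12 ± 0.07 in HCT116, with the larger value in HCT116, and did not pass (line difference -0.28 ± 0.09, adjusted p = 0.134). ABCG1 read 5.72 to 6.30 on all 8 arrays and differed by 0.09 ± 0.14 and 0.17 ± 0.14. ABCA1 read 4.04 to 4.83, below the level at which genes were tested.

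Leaving out 1 array left 2 residual degrees of freedom for the line difference, and fewer members were called. Counted over all 31 members, the line difference passed for 2 without the untreated HCT116 array, 4 without HCT116 given vitamin D3, 2 without HCT116 given THP1 and 4 without HCT116 given both. On the Hke3 side it passed for 5 without the untreated array, 2 without the array given vitamin D3, 6 without the array given THP1 and 2 without the array given both. INSIG1 (line difference from 1.18 to 1.37 log2) and LPIN1 (0.88 to 0.97) passed in all 8 fits. INSIG2 and STARD4 passed in 3 of the 8, IDI1 in 2, and ACAT2 and DHCR7 in 1 each. SQLE, LSS, NSDHL, EBP and SCD passed in 0. None of the 12 changed sign. The 9 rises in Hke3 became 3 without its untreated array, 3 without its vitamin D3 array, 5 without its THP1 array and 4 without the array given both. The 10 calls in HCT116 became 2 without its untreated array, 4 without its THP1 array, and 0 without either of its arrays that had vitamin D3. Of NPC1 and TM7SF2, neither was called across lines without any 1 of the 4 HCT116 arrays or without Hke3 given both, and 1 was called without each of the other 3 Hke3 arrays. With no filter on dim genes 6 of the 12 line differences passed. The count over the members was 13 both with no vitamin D3 term and with the vitamin D3 labels of the coculture arrays exchanged.

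Probe sets of 1 gene did not always give the same size. SCD has 4, and the brightest, with a mean of 12.89 log2 over the colon cancer arrays, gave the smallest line difference (0.58). The other 3, with means of 12.06, 10.16 and 9.63, gave 1.01, 1.58 and 1.25 (adjusted p = 0.00382, 0.00177 and 0.00234). On these 3 the Hke3 rise of SCD was 0.89, 1.55 and 1.25 log2, while HCT116 differed by -0.12, -0.03 and 0.008. The 3 probe sets of INSIG1 gave 1.28, 1.73 and 1.45, and those of LPIN1 0.92, 0.87 and, on the dimmest, a value above both. All 6 passed. DHCR7 gave 0.61 and 0.60, both past the threshold.

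Other genes depended on the probe set. A further SQLE probe set gave 0.10 (adjusted p = 0.587) and a dimmer one 0.98 (adjusted p = 0.00532). Of the IDI1 probe sets, the second brightest gave 0.72 (adjusted p = 0.0126) and the next 0.05 (adjusted p = 0.838), with -0.16 in Hke3. The dimmest of 4 IDI1 probe sets that exceeded 6.18 log2 on some array pointed the other way (-0.44, adjusted p = 0.263), as did a dim FASN probe set (-0.36, adjusted p = 0.145) and a dim SC5D probe set (-0.61, adjusted p = 0.1). On that SC5D probe set HCT116 rose by 0.62 (adjusted p = 0.0188), where the brightest differed by -0.09. The second ACACA probe set was called where the brightest was not: the line difference was 0.94 (adjusted p = 0.0162), and it fell in HCT116 (-0.79 log2, adjusted p = 0.00531). The fall of LSS in HCT116 was not seen on its 2 dimmer probe sets (-0.03, adjusted p = 0.855, and -0.05, adjusted p = 0.712). Their line differences missed the threshold (0.30, adjusted p = 0.17, and 0.47, adjusted p = 0.0539), and the second of them rose in Hke3 (0.42, adjusted p = 0.0211). With the mean of its probe sets, the LSS difference in HCT116 was -0.12 (adjusted p = 0.235). Second probe sets of EBP (0.43, adjusted p = 0.0594) and NSDHL (0.31, adjusted p = 0.0992) kept the sign and missed the threshold, and both gave a fall in HCT116 that passed (adjusted p = 0.0112 and 0.0298). The 2 dimmer EBP probe sets gave line differences of 0.26 (adjusted p = 0.281) and 0.21 (adjusted p = 0.317). Their HCT116 differences of -0.10 (adjusted p = 0.493) and -0.28 (adjusted p = 0.054) also missed the threshold.

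**Figure D3:**
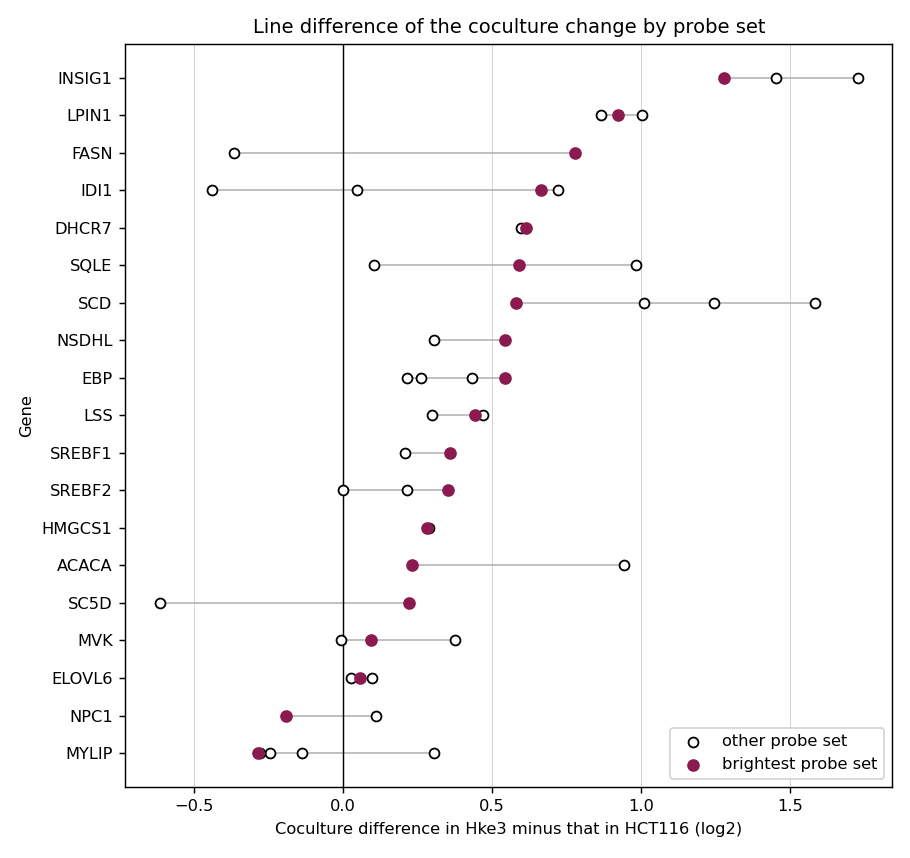
Coculture difference in Hke3 minus that in HCT116 on the log2 scale (horizontal axis), by probe set and gene (vertical axis). Drawn are the probe sets above 6.18 log2 on some colon cancer array, for the 19 genes with more than 1. Filled symbols are the brightest probe set of a gene, and open symbols the others. SCD spreads from 0.58 to 1.58 with the brightest probe set lowest, while INSIG1 and LPIN1 are at 0.87 or higher on every probe set.

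Promoters of 4 genes called for the line difference, and that of SREBF2, which was not called, are shown because SREBP acts at its targets together with the CCAAT-binding factor NF-Y and with Sp1. The promoter table used, from RefSeq (build GRCh38.p14), matched 28 of the 32 genes, with 39 promoters in all; ABCG1, ACAT2, FASN and SQLE were not matched. Each sequence is the 250 bases before the gene's start, 5′ to 3′ on the gene's strand, with capitals for CCAAT or its reverse ATTGG and for TCACNCCAC on either strand. INSIG1 and STARD4 lead the sterol regulators and carriers, and NSDHL has 5 CCAAT matches, of which 2 overlap in a palindrome. SCD is the fatty acid gene with the largest differences on its other probe sets. SREBF2 is the member with a match to TCACNCCAC in this window.
INSIG1 (chr7:155297628-155297877, plus strand): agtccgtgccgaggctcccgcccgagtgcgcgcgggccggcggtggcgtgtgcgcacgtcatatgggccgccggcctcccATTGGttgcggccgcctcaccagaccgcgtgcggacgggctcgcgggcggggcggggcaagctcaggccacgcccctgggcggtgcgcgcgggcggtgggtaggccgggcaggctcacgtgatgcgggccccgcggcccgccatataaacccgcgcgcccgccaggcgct
STARD4 (chr5:111512536-111512785, minus strand): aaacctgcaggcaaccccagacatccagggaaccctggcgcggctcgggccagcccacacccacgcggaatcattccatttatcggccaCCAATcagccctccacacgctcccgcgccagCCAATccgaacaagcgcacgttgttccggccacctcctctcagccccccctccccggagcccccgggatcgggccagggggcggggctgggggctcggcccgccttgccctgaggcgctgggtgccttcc
NSDHL (chrX:152830813-152831062, plus strand): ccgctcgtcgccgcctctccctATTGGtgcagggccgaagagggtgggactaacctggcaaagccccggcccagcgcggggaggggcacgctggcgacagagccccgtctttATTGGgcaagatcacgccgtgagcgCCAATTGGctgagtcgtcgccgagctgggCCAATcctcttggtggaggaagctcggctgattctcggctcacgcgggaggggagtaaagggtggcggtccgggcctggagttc
SCD (chr10:100346983-100347232, plus strand): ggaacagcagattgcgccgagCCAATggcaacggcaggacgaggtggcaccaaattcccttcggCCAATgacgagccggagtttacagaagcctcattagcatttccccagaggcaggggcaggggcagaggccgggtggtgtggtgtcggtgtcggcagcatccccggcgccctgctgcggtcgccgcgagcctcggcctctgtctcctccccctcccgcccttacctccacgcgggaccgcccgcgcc
SREBF2 (chr22:41832855-41833104, plus strand): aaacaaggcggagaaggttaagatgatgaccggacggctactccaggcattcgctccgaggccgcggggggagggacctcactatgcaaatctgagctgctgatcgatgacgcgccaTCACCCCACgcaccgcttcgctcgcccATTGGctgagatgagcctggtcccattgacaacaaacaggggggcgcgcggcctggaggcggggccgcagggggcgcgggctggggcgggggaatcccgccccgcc

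Both strands of these windows were searched. CCAAT was in 22 of the 39 member promoters (56.4%) and in 32.0% of 35116 promoters of the table. GGGCGG, the Sp1 box, was in 34 of 39 (87.2%) and in 42.6% of all. The sterol regulatory element string TCACNCCAC was in 1 of 39, that of SREBF2, and in 0.883% of all. The LXR element (DR4) was found in 0 of 39 and in 0.0142% of all. Among genes with a promoter, 8 of 10 called for the line difference and 11 of 17 not called held CCAAT. The called genes without it were INSIG2 and LPIN1, whose promoters are not shown. These are matches of letters. Many sterol regulatory elements differ from the string searched, and LXR elements that differ from the perfect repeat were not counted.

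Related genes of the same pathways were listed apart from the members, and few passed for the line difference. Of 5 genes that cleave SREBP or degrade sterol-bound proteins none passed for the line difference, where 4.21% of all genes were called in either direction, and all 5 had the larger value in HCT116, with a median of -0.22 log2; the smallest p was that of MBTPS2, the site-2 protease (-0.36 ± 0.10, adjusted p = 0.101). Of 6 genes that supply acetyl-CoA and NADPH, SLC25A1, which carries citrate out of mitochondria for lipid synthesis, had the larger value in Hke3 (0.55 ± 0.11, adjusted p = 0.0406), where it rose by 0.35 (adjusted p = 0.0422). Of 11 genes of fatty acid activation, elongation and esterification, the elongase ELOVL7 had the larger value in HCT116 (-0.47 ± 0.10, adjusted p = 0.045). None of 6 isoprenoid genes (PGGT1B had the smallest p, adjusted 0.218), 4 LXR and oxysterol genes (NR1H3, adjusted 0.0899) or 7 fatty acid oxidation genes (ACADVL, adjusted 0.124) passed. Some of these genes rose in both lines. ACSL5, which activates fatty acids, rose by 0.39 ± 0.06 in Hke3 and 0.76 ± 0.06 in HCT116 (adjusted p = 0.0177 and 0.00163). ACADVL, which starts the oxidation of long chains, rose by 0.37 ± 0.07 and 0.69 ± 0.07 (adjusted p = 0.0265 and 0.00285). ACSS2, which makes acetyl-CoA from acetate, rose in HCT116 by 0.44 ± 0.09 (adjusted p = 0.0172), while GGPS1, which makes geranylgeranyl diphosphate, rose there by 0.33 ± 0.06 (adjusted p = 0.0181). Also called in HCT116 were MBTPS2 (0.26), ELOVL7 (0.29) and HADHB, of the trifunctional protein of fatty acid oxidation (0.27), all higher. In Hke3 the farnesyltransferase subunit FNTA (0.32) was also called higher. By list, in the order above, HCT116 calls were 1 of 5, 1 of 6, 2 of 11, 1 of 6, 0 of 4 and 2 of 7. Those in Hke3 were 0, 1, 1, 1, 0 and 1. Of all genes tested, 16% were called in HCT116 and 7.14% in Hke3.

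Averaged over cultures, the lines differed in 9 of 31 members, 7 higher and 2 lower in Hke3, against a background of 40.5% of all genes tested, 24.8% higher and 15.7% lower. FASN stood 2.11-fold above HCT116 in Hke3 (log2 1.08 ± 0.17, adjusted p = 0.00153), and all 4 Hke3 values exceeded all 4 HCT116 values. MYLIP (0.63 ± 0.07, adjusted p = 0.000335) and ACACA (0.50 ± 0.08, adjusted p = 0.00187) were also higher. INSIG2 was higher by 0.77 ± 0.21 (adjusted p = 0.02), an average of a gap of 0.22 without coculture and 1.33 with it. This call was lost without HCT116 given both (0.70, adjusted p = 0.0592), without Hke3 given both (0.62, adjusted p = 0.0594) and without Hke3 given THP1 (0.65, adjusted p = 0.0652). SREBF1, SCAP and HSD17B7 were higher in Hke3 by 0.34, 0.26 and 0.26. SC5D (-0.42 ± 0.06, adjusted p = 0.00159) and MSMO1 (-0.32 ± 0.09, adjusted p = 0.0257) were lower. With 1 array left out at a time, SREBF1 lost its call in 3 of 8 fits, HSD17B7 in 4 and MSMO1 in 5. FASN, MYLIP, ACACA, SCAP and SC5D kept theirs in all 8. Under the other alternatives of processing the FASN difference ran from 0.53 to 1.08 log2. With arrays centred on their medians the split was 6 higher and 4 lower, and with cyclic loess 7 and 3. In all genes tested median centring turned the split from 3287 higher and 2077 lower to 2570 and 3358.

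The same differences can be read as the gap between the lines in each culture. INSIG1 was 0.80 log2 lower in Hke3 without coculture (a mean of -0.80 over 2 pairs) and 0.47 higher with it. STARD4 went from -0.42 to 0.57, LPIN1 from -0.22 to 0.70, and DHCR7 from -0.55 to 0.07. FASN, already higher in Hke3 by 0.69, was 1.47 higher in coculture. These gaps restate the difference tested above for each gene.

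**Figure D4:**
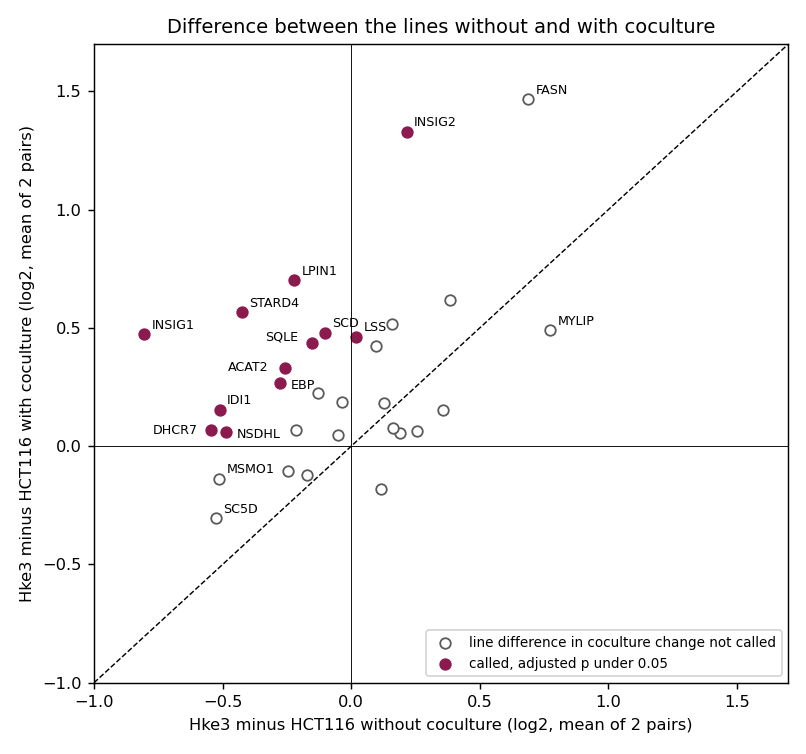
Hke3 minus HCT116 without coculture (horizontal axis) and with coculture (vertical axis), log2, each the mean of 2 pairs of arrays, for the 31 tested genes; filled symbols passed for the difference in coculture change, and the dashed line marks equal gaps. All 12 filled symbols lie above the dashed line, 10 of them with a gap below 0 without coculture and above 0 with it, and LSS and INSIG2 with a gap above 0 in both.

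Vitamin D3 changed no member by limma in the colon cancer arrays (0 of 31, with 0 of 13243 genes called, 0%). Without adjustment 1 of 31 members, FADS2, had a p under 0.05 (-0.20 ± 0.06 log2, unadjusted p = 0.0131), and so did 375 of 13243 genes, a similar share. With the labels as deposited, FADS2 was lower on the array with vitamin D3 than on its partner in each of 4 pairs. The differences were -0.04 in HCT116, -0.19 in Hke3, and -0.19 and -0.38 in their cocultures. CYP24A1 goes against the labels of the coculture pairs, and with these exchanged both would be rises. Exchanging the vitamin D3 labels of the coculture arrays also called no member.

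In THP1 the members stood at other levels than in the colon cancer lines, as did most genes: 24 of 32 members differed, 13 higher and 11 lower, where 69.7% of 13879 genes tested over all 10 arrays were called, 28.7% higher and 41% lower. ABCA1 and ELOVL6 are among the 24, but each passed the filter on dim genes only through the cells where it is high, ABCA1 through THP1 and ELOVL6 through the colon cancer lines. They therefore had to differ, and their values are given as a description. ABCA1, the cholesterol exporter, read 8.92 alone and 8.95 with vitamin D3 in THP1 and 4.04 to 4.83 in the colon cancer arrays. ELOVL6 read 5.43 alone and 5.65 with vitamin D3 in THP1 and 9.81 to 10.37 in the colon cancer arrays.

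The sterol enzymes of the early steps were mostly higher in THP1 and the fatty acid enzymes mostly lower. Of 7 mevalonate genes 5 were higher, among them ACAT2 (0.99 ± 0.12), PMVK (0.83 ± 0.07) and IDI1 (0.69 ± 0.07), and MVD was lower (-0.52 ± 0.08). SQLE was higher by 0.86 ± 0.07, and DHCR7 was lower (-0.84 ± 0.08). Beside ELOVL6, 4 of the other 5 fatty acid genes were lower, including FASN (-1.10 ± 0.12) and SCD (-1.07 ± 0.08), and FADS2 was higher (0.88 ± 0.08). The INSIG genes diverged: INSIG1 read 11.54 alone and 12.07 with vitamin D3 in THP1, above all colon cancer values (1.60 ± 0.10, adjusted p = 3.18e-06), and INSIG2 read 8.01 alone and 8.02 with vitamin D3, below all of them (-1.33 ± 0.11, adjusted p = 1.35e-05). THP1 was compared with the mean of both lines without coculture. The median of all genes moved from -0.07 to 0.13 log2 when arrays were centred on their medians, and 19 members were then higher and 11 lower, as with cyclic loess. Over all genes tested the split went from 3985 higher and 5693 lower to 5874 and 4515 with median centring and 4862 and 4872 with cyclic loess.

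**Figure D5:**
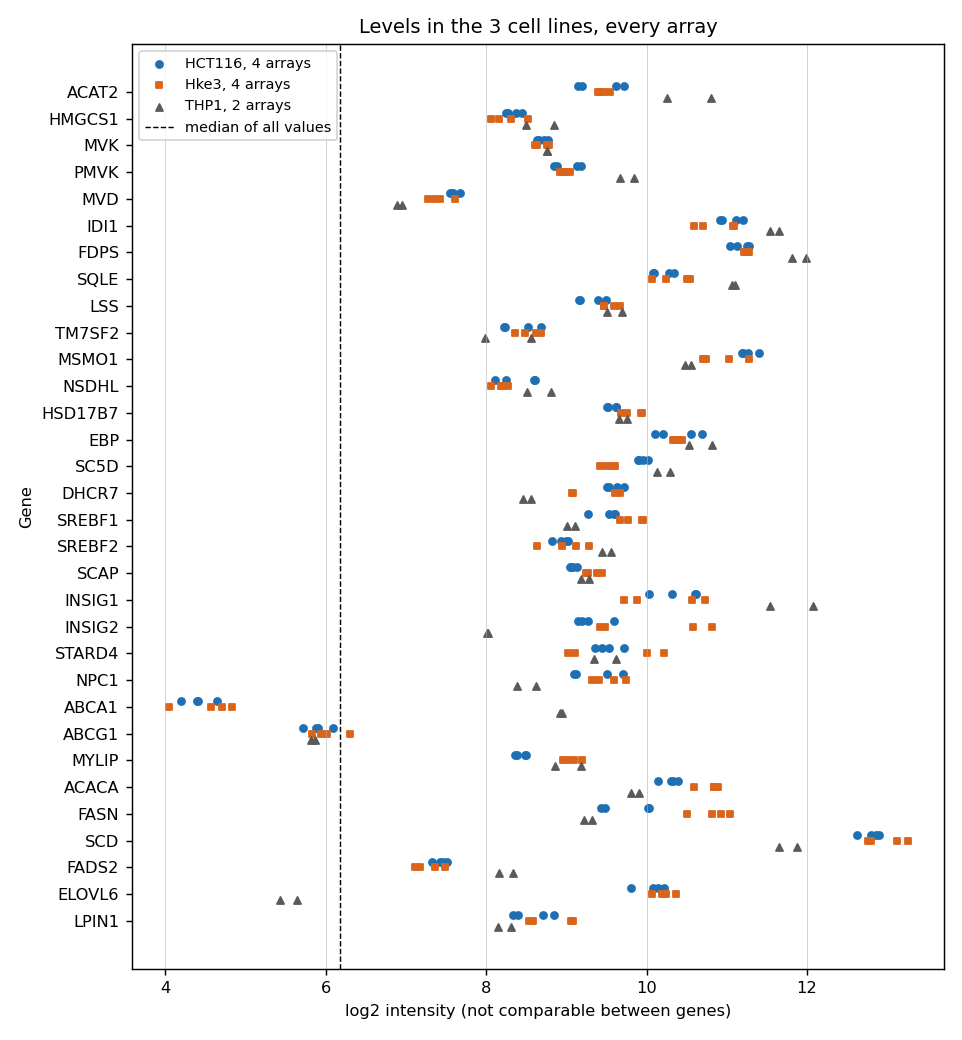
Deposited log2 intensity (horizontal axis) of the 32 genes (vertical axis) on every array, circles for HCT116, squares for Hke3 and triangles for THP1; the dashed line is the median of all values, 6.18, and levels cannot be compared between genes. ABCA1 lies right of the dashed line on the THP1 arrays only, ELOVL6 left of it on those arrays only, and INSIG1 is highest in THP1.

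With vitamin D3, THP1 gave differences from -0.57 to 0.53 log2 over the 32 genes, 18 above 0, with no replicate and no test. The lowest were TM7SF2 (-0.57) and ACAT2 (-0.56), and the highest INSIG1 (0.53), HMGCS1 (0.35) and NSDHL (0.30).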

How the data were processed

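The authors deposited 1 log2 intensity per probe set and array, made with RMA (affy) per the submitters' processing notes; RMA corrects background, quantile-normalises and summarises probes. Whether the 10 arrays were normalised together is not stated. Values ran from 2.98 to 15.2 log2, with array medians from 6.15 to 6.21. Of 54675 probe sets, 41097 map to 1 symbol and 1801 to several (left out), and the remaining 11777 are unnamed. The number of arrays limits the precision. Groups follow the titles; 1 label field of the Hke3 array with vitamin D3 calls it untreated.

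For the 8 arrays of HCT116 and Hke3, limma (version 3.58.1, R 4.3.3) modelled line, coculture and vitamin D3, plus the line by coculture term for the line difference and for coculture within a line (3 residual degrees of freedom, otherwise 4). THP1 was set against both lines in a fit of all 10 arrays. The threshold was an adjusted p of 0.05. The fit was tested on simulated data. The members and lists were chosen with earlier results of these data known, and so was each alternative: no filter or a 75th percentile filter (8.14 log2), the mean of probe sets, median-centred arrays, cyclic loess, trend and robust fitting, a minimum of 1.5-fold, no vitamin D3 term, all two-way interactions, and leaving out each array. Exchanged vitamin D3 labels were added after the data were seen. All members are described; values on every array are given for those called for coculture in a line or for the line difference, and for the next 3 by p. Listed genes are named when called, at most 4 per list, or by the smallest p. Figures were drawn with matplotlib 3.10.9.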

Additional observations from a re-analysis of the deposited data

Results flagged for a closer look

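The coculture difference of 12 genes differed between the lines by a test of the difference itself, the line by coculture term of limma, and each had the larger value in Hke3. In log2, INSIG1 differed by 1.28, INSIG2 by 1.11, STARD4 by 0.99 and LPIN1 by 0.92. IDI1 differed by 0.66, DHCR7 by 0.61, ACAT2 by 0.59, SQLE by 0.59 and SCD by 0.58. NSDHL and EBP each differed by 0.54, and LSS by 0.44. Of the 12, only INSIG1 and LPIN1 kept the call whichever array was left out.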

How the results depend on the processing

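No paired analysis was possible because each condition has 1 array and the labels give no replicate numbers; the vitamin D3 term matches arrays by treatment, not by a replicate number. No called difference of a member changed sign under any alternative run. With 1 array a condition, few residual degrees of freedom limit what can be called, and dim genes lie near background. The cause of the shifts below was not tested.

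Of all genes, 557 were called for the line difference, 946 for coculture in Hke3, 2116 in HCT116, 1035 across lines, 5364 between lines and 9678 in THP1. With no filter on dim genes these became 277, 446, 1261 and 656 for the first 4, and 6 members kept the line difference. The 75th percentile filter gave 973 line differences, trend and robust fitting 1169 line differences and 1599 calls in Hke3. A minimum of 1.5-fold left 9 genes for the line difference, 12 in Hke3, 6 in HCT116, 0 across lines, 208 between lines and 4680 in THP1. It left 0 members in each comparison but THP1, where 11 were called. All two-way interactions gave 2947 genes and 11 members across lines, and 20 members between lines. The mean of probe sets left 1 member across lines, TM7SF2. Exchanged vitamin D3 labels, chosen after seeing the data, gave 978 line differences and 2 genes for vitamin D3 in place of 0.

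Without 1 array at a time the line difference was called for 101 to 282 genes and 2 to 6 members, coculture in Hke3 for 118 to 676 genes and 3 to 8 members, and coculture in HCT116 for 126 to 1870 genes and 0 to 10 members. Across lines it was 39 to 435 genes and 0 to 1 members, and between lines 5 to 9 members. The lowest gene counts came without Hke3 given vitamin D3 (line difference and Hke3), HCT116 given both (HCT116) and HCT116 given vitamin D3 (across lines).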
